A study of Mus musculus with 12 samples.

Results

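The 10 genes described here encode NRF2 (Nfe2l2) and enzymes or a transporter of the antioxidant defense (Hmox1, Nqo1, Gclm, Gclc, Slc7a11, Txnrd1, Srxn1, Gsr and Sod2). They were taken by symbol, each matched to 1 of the 48526 genes of the count table, and all 10 were among the 15523 genes that passed the filter on low counts. The study deleted a region upstream of Tnf, an enhancer candidate that the labels call HSS9 and the paper TNF-9, and asked how bone marrow-derived macrophages (BMDMs) without it respond to lipopolysaccharide (LPS), a bacterial cell wall component. BMDMs came from mice homozygous for the deletion (KO) or from control mice (WT), were cultured with L929-conditioned medium, and were given PBS (UT) or LPS for 6 hr. There were 4 groups (UT and LPS of each genotype) with 3 total RNA libraries each. By the study's methods the mice were young adult males. The methods name C57BL/6 for purchased mice, and the strain of the KO mice is not given in the sources used here. The controls are littermates by the labels. The methods describe purchased mice and homozygous KO breeding pairs, and do not say which mice were the controls. Which origin holds for these libraries is not settled. Nothing states that the 3 libraries of a group came from 3 mice, so the p-values measure the spread between these libraries, which may be technical.

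NRF2 is a transcription factor that is held by KEAP1 and degraded while a cell is at rest. Oxidants and electrophiles free it, and with a small MAF protein it then binds antioxidant response elements near genes for glutathione synthesis, thioredoxin recycling, quinone reduction and heme breakdown. BACH1 binds the same elements as a repressor, and macrophages exposed to LPS make oxidants through the NADPH oxidase.

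The core letters of the antioxidant response element, TGACNNNGC, were searched on both strands of the RefSeq promoters (build GRCm38.p6), each running from 250 bases before to 50 bases after a gene's start. Of 32851 promoters, 12.4% held the letters, as did 17% of the 10233 tested genes with a promoter. The promoter table held 7 of the 10 genes, and 4 of these 7 had a match. The 4 matches are shown because they are where these promoters hold the core letters, whether or not NRF2 acts there. They are written 5′ to 3′ on the strand of the match, with the 9 letters of the motif in capitals and 10 bases on each side.
Nfe2l2, chr2:75704885-75704913, minus strand: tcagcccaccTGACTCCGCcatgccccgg
Gclm, chr3:122245413-122245441, minus strand: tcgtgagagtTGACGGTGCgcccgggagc
Txnrd1, chr10:82859104-82859132, minus strand: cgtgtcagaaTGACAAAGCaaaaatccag
Srxn1, chr2:152105542-152105570, minus strand: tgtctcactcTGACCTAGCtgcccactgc
The match of Txnrd1 lay in 1 of its 3 promoters, and that of Srxn1 started 29 bases after the gene's start. The windows of Nqo1, Slc7a11 and Sod2 did not hold these letters, which says nothing on sites elsewhere. Among 9 regulators of NRF2, the small MAF genes Maff, Mafg and Mafk had a match, and these sequences are shown because the products of the genes are the partners of NRF2.
Maff, chr15:79346499-79346527, plus strand: gggcgtctcaTGACTCTGCcactggaaag
Mafg, chr11:120633751-120633779, plus strand: ctcgccgggtTGACCGTGCtcctgcagag
Mafk, chr5:139791513-139791541, minus strand: tccccagtacTGACACCGCttccgggatc
A match is a description of sequence and not a bound site.

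The libraries held 26154533 to 36423921 counts. Tnf, the readout of the deletion, had counts of 329, 358 and 360 in KO UT against 632, 679 and 761 in WT UT, and 11003, 11974 and 11608 in KO LPS against 22172, 20154 and 19902 in WT LPS, so that it was lower in KO without LPS (log2 -0.66, adjusted p = 1.29e-06) and after it (-1.04, adjusted p = 2.76e-10). Macrophage markers summed to 5370 to 5470 CPM (counts scaled to the same library size) in WT UT and 5620 to 5700 CPM in KO UT. They summed to 6360 to 6780 CPM in WT LPS and 7670 to 7850 CPM in KO LPS. After LPS the group means of Csf1r, Cd68 and Mertk were lower in both genotypes, and those of Adgre1, Itgam and Fcgr1 were higher. B cell, T cell and erythroid markers reached at most 0.289 CPM. Neutrophil markers summed to 18.0 to 19.3 CPM in WT UT and 40.1 to 45.2 CPM in KO UT. They summed to 50.3 to 79.0 CPM in WT LPS and 67.0 to 76.2 CPM in KO LPS. In each group 1 or 2 of the 6 were at 0 in all libraries. The sums join markers that moved in opposite directions with LPS. The mean of S100a8 went from 7.32 to 52.7 CPM in WT and from 16.4 to 56.8 CPM in KO. Camp also rose, from 0.206 to 4.02 CPM in WT and from 0.863 to 4.17 CPM in KO. S100a9 fell, from 10.99 to 6.08 CPM in WT and from 25.5 to 10.2 CPM in KO. In bulk libraries, fewer cells of a type and less RNA per cell cannot be told apart. Small structured RNAs took a share of the counts that moved with the groups, at 3.00 to 3.25% in WT UT, 6.64 to 7.98% in KO UT, 4.04 to 6.89% in WT LPS and 3.23 to 3.43% in KO LPS. Its part in the genotype differences given here was not tested as a cause, and fits that hold it as a covariate were run as an alternative. The scaling factors by trimmed mean of M values (TMM) lay between 0.811 and 0.822 in LPS libraries and between 1.15 and 1.29 in UT libraries.

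LPS moved the 10 genes in opposite directions. In WT BMDMs 6 rose and 3 fell at an adjusted p below 0.05 in edgeR's quasi-likelihood test, where 38% of all tested genes rose and 35.3% fell, 73.3% in all. In KO BMDMs 7 rose and 2 fell, where 35.1% of all genes rose and 37.7% fell, 72.8% in all, and these counts were 6 and 3 with upper-quartile scaling and 6 and 4 with library totals alone. In WT, 6 rose and 4 fell with upper-quartile scaling, and likewise with library totals alone. With the small structured RNA share as a covariate, 7 rose in WT, Gclm among them (0.23), and 1 fell. The LPS and UT libraries did not overlap for 9 of the 10 genes in WT and 10 of 10 in KO, against 74.8% and 76% of all genes. The median log2 fold change of the 10 was 1.31 in WT and 1.34 in KO, where that of all tested genes was 0.05 and -0.06. The genes that rose span transport of cystine, recycling of glutathione and thioredoxin, heme breakdown and the mitochondrial superoxide dismutase, while Gclc and Nqo1 were lower in both genotypes.

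**Figure D1:**
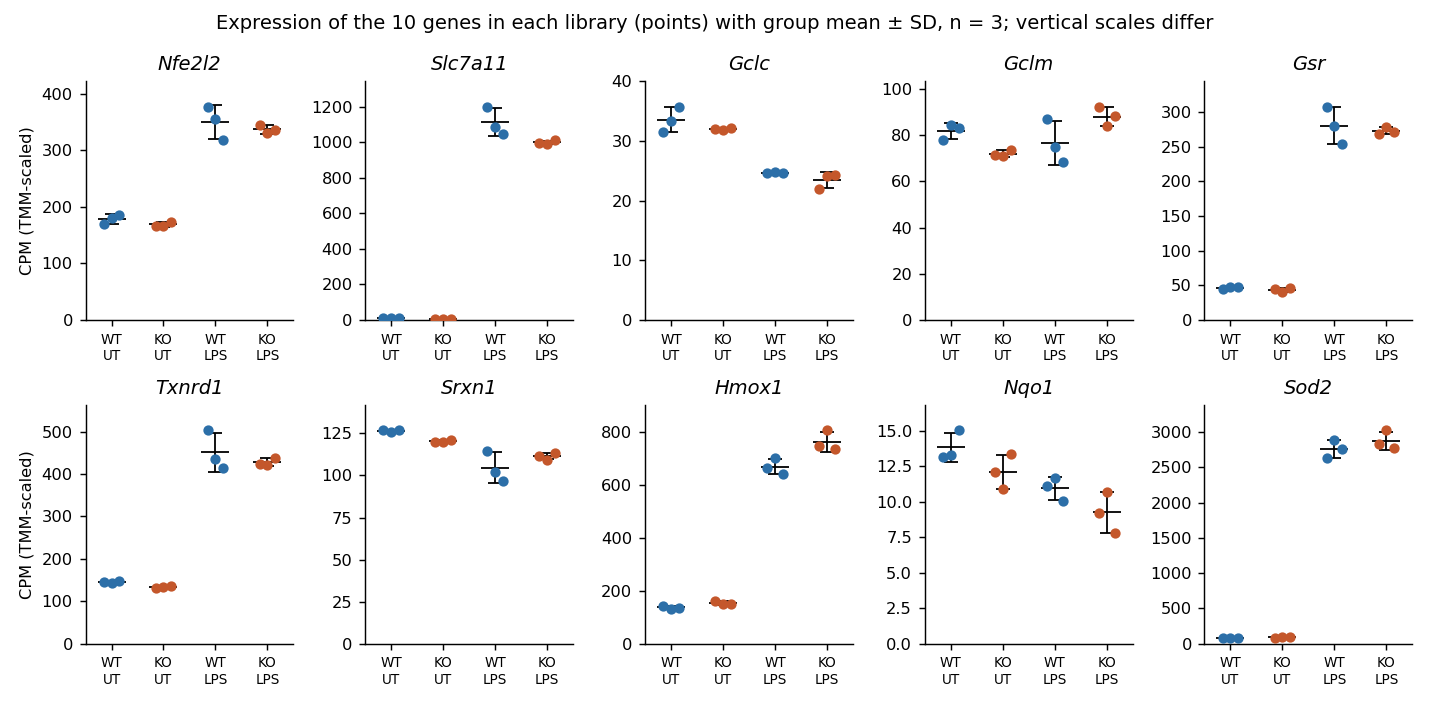
TMM-scaled CPM of the 10 genes (vertical axes, from 0, with a different scale for each gene) in the 4 groups, where each point is 1 library, blue for WT and orange for KO, and the black lines give the mean ± SD of 3 libraries. LPS libraries of Slc7a11 lay between 988 and 1200 CPM while its UT libraries lay at or below 12.9 CPM, and Gclc and Nqo1 were lower after LPS in both genotypes.

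Slc7a11, the light chain of the exchanger that brings cystine into the cell for glutathione synthesis, changed most of the 10. It stood at 12.8, 12.5 and 12.9 CPM in the WT UT libraries and at 1200, 1088 and 1048 CPM in the WT LPS libraries. In KO it went from 6.07, 7.84 and 6.85 CPM without LPS to 998, 988 and 1010 CPM with it. All LPS libraries were far above all UT libraries, with a log2 fold change of 6.45 ± 0.08 (SE, adjusted p = 3.51e-24) in WT, or 87.4-fold, and 7.17 ± 0.09 (SE, adjusted p = 1.45e-24) in KO, or 144-fold. Slc3a2, the heavy chain that carries SLC7A11 to the membrane, rose by log2 1.33 in WT and 1.32 in KO. A level per length is CPM divided by the length of all annotated exons of a gene together, whether or not these cells use them. Ratios and orders between genes therefore depend on that length. Per length, Slc7a11 stood at 0.0182 ± 0.0005 (SD, n = 3) of Slc3a2 in WT UT and at 0.636 ± 0.057 (SD, n = 3) in WT LPS.

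Sod2, the manganese superoxide dismutase of mitochondria, was next. Its values were 78.5, 79.0 and 82.6 CPM in WT UT, 87.0, 90.6 and 88.5 CPM in KO UT, 2635, 2890 and 2769 CPM in WT LPS, and 2836, 3027 and 2777 CPM in KO LPS. The groups with and without LPS did not overlap, at log2 fold changes of 5.11 ± 0.06 (SE, adjusted p = 1.03e-24) in WT and 5.02 ± 0.06 (SE, adjusted p = 1.26e-24) in KO. Sod1, the dismutase of the cytosol, fell by log2 0.35 in WT and 1.02 in KO, so that the ratio of Sod2 to Sod1 per length went from 0.130 ± 0.005 (SD, n = 3) to 5.74 ± 0.68 (SD, n = 3) in WT and from 0.103 ± 0.006 (SD, n = 3) to 6.78 ± 0.06 (SD, n = 3) in KO. A ratio within a library does not depend on the scaling between libraries. Slc7a11 and Sod2 together took 10.8% of the counts of the 10 genes in WT UT and 11.5% in KO UT, and 66.3% and 65.6% after LPS.

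Glutathione reductase (Gsr), which restores reduced glutathione with NADPH, stood at 45.3, 47.2 and 47.6 CPM in WT UT, 44.4, 40.0 and 46.1 CPM in KO UT, 308, 279 and 255 CPM in WT LPS, and 269, 278 and 271 CPM in KO LPS. It rose 6.01-fold in WT and 6.27-fold in KO (adjusted p = 1.12e-18 and 8.22e-19). Heme oxygenase 1 (Hmox1), which opens the heme ring and releases iron, stood at 144, 133 and 134 CPM in WT UT and at 665, 703 and 644 CPM in WT LPS. In KO it went from 162, 150 and 151 CPM to 750, 808 and 738 CPM. Its rise was 4.88-fold in WT and 4.97-fold in KO (adjusted p = 4.81e-19 and 3.93e-19). Every LPS library was above every UT library for both genes, and Hmox1 had the highest level per length of the 10 genes in each of the 4 groups, at 78.5, 87.9, 383 and 437 CPM per kb, with WT before KO and UT before LPS. This place rests on its exon length of 1751 bp. Sod2, at 10008 bp, had a mean of 2765 CPM in WT LPS against 671 CPM for Hmox1.

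Thioredoxin reductase 1 (Txnrd1), the cytosolic enzyme that recycles thioredoxin, rose 3.12-fold in WT and 3.20-fold in KO, from 142 to 148 CPM in WT UT and 132 to 136 CPM in KO UT to 415 to 503 CPM in WT LPS and 421 to 439 CPM in KO LPS. Nfe2l2 itself rose less, from 169, 180 and 186 CPM to 377, 355 and 318 CPM in WT and from 166, 167 and 174 CPM to 344, 330 and 336 CPM in KO. Its log2 fold changes of 0.97 ± 0.06 (SE, adjusted p = 3.94e-12) and 1.00 ± 0.06 (SE, adjusted p = 2.81e-12) lie at the fold of 2 that the study's criteria ask for, just under it in both genotypes. It passed them in KO by DESeq2 (1.03) and RLE scaling (1.03), in both genotypes with protein-coding genes alone (1.05 in WT and 1.03 in KO) and in WT with the small structured RNA share as a covariate (1.22, with 0.62 in KO), as it did without WT LPS replicate 3 or WT UT replicate 3 in WT and without KO LPS replicate 2 or KO UT replicate 3 in KO. Slc7a11, Sod2, Gsr, Hmox1 and Txnrd1, 5 of the 10 genes, passed these criteria in both genotypes, beside 19.1% of all genes called higher by them in WT and 17.7% in KO, and with Nfe2l2 the count was 6 under those settings.

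Scaled by library totals alone, without the TMM factor, the median log2 change of all genes was -0.62 in WT and -0.56 in KO, and the rise of Nfe2l2 was then 0.31 in WT and 0.49 in KO on the log2 scale, still past the adjusted p threshold, and that of Txnrd1 in WT was 0.98, under the study's criteria. The 5 larger rises and the fall of Gclc kept their direction and stayed past the adjusted p threshold under each scaling and each other alternative run.

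Gclc, the catalytic subunit of the enzyme that starts glutathione synthesis, fell in both genotypes, from 31.5, 33.4 and 35.8 CPM to 24.7, 24.9 and 24.6 CPM in WT and from 32.1, 31.9 and 32.1 CPM to 22, 24.1 and 24.3 CPM in KO. The groups did not overlap, and the log2 fold change was -0.44 ± 0.07 (SE, adjusted p = 4.56e-06) in WT and -0.45 ± 0.07 (SE, adjusted p = 3.9e-06) in KO. Nqo1, a quinone reductase often used as a readout of NRF2, fell by log2 0.34 ± 0.11 (SE, adjusted p = 0.01) in WT and 0.39 ± 0.11 (SE, adjusted p = 0.0041) in KO. Its levels were low, at 13.2, 13.3 and 15.03 CPM in WT UT, 12.1, 10.9 and 13.3 CPM in KO UT, 11.1, 11.7 and 10.0 CPM in WT LPS and 9.24, 10.7 and 7.79 CPM in KO LPS. Its fall in WT lost the call without WT UT replicate 3 (log2 -0.28) and with the small structured RNA share as a covariate (-0.16), as did its fall in KO with that covariate (-0.66, adjusted p = 0.0595).

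Srxn1, which repairs overoxidized peroxiredoxins, had 127, 126 and 127 CPM in WT UT and 115, 102 and 96.7 CPM in WT LPS, a fall by log2 0.27 ± 0.06 (SE, adjusted p = 0.000277). In KO it had 120, 120 and 121 CPM without LPS and 112, 109 and 113 CPM with it, where the log2 fold change of -0.11 (95% interval -0.23 to 0.01) did not pass the test (adjusted p = 0.1), though it did with upper-quartile scaling (-0.29), library totals alone (-0.62), the covariate (-0.44), the 6 KO libraries alone (-0.11) and WT LPS replicate 1 left out (-0.11). The fall in WT was -0.06 with the small structured RNA share as a covariate and then did not pass. Gclm, the modifier subunit that partners Gclc, is described with the genotype differences.

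**Figure D2:**
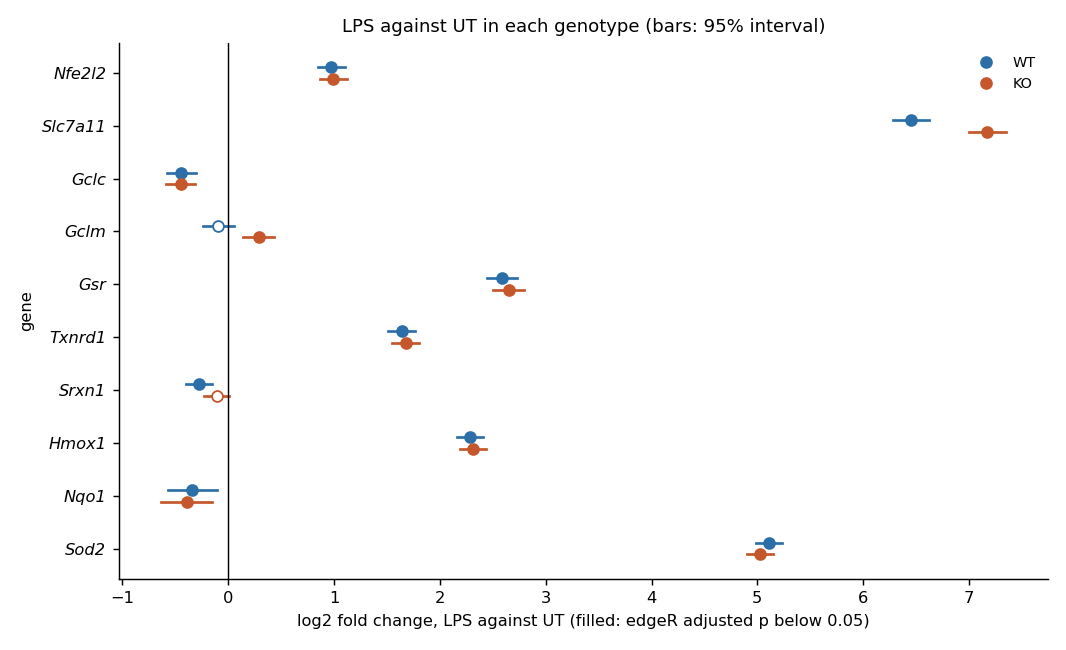
Log2 fold change of each of the 10 genes for LPS against UT (horizontal axis) in WT (blue) and KO (orange), with bars for the 95% interval and filled points for an edgeR adjusted p below 0.05. Slc7a11 at 6.45 and 7.17 and Sod2 at 5.11 and 5.02 lay farthest to the right, Gclc and Nqo1 lay below 0 in both genotypes, and Gclm and Srxn1 passed the test in 1 genotype each.

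Without LPS, the level of Slc7a11 was 1.84-fold lower in KO than in WT. None of the 3 KO libraries (6.07 to 7.84 CPM, from counts of 210, 267 and 271) reached the lowest WT library (12.5 CPM, from counts of 546, 565 and 607), and the log2 difference was -0.88 ± 0.08 (SE, adjusted p = 1e-07). Slc7a11 thus had the lowest level per length of the 10 genes in both genotypes, at 0.913 CPM per kb in WT UT and 0.497 CPM per kb in KO UT. Counted against the other 9 genes within each library, Slc7a11 had 15.4, 14.9 and 15.03 counts per 1000 in WT UT and 7.34, 9.64 and 8.21 in KO UT. Its exon length of 13922 bp is the largest of the 10. Protein-coding genes called lower in KO UT had a median exon length of 6254.5 bp, and those called higher 2451 bp. The part of transcript length in the difference of Slc7a11 was not tested. The difference passed the test under every alternative run, with log2 values from -0.97 to -0.79 when 1 library at a time was left out, -0.56 with the small structured RNA share as a covariate and -1.03 with library totals alone.

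Hmox1 and Sod2 were higher in KO UT than in WT UT, by log2 0.16 ± 0.06 (SE, adjusted p = 0.0406) and 0.15 ± 0.05 (SE, adjusted p = 0.0385). Every KO UT library was above every WT UT library for both. With these 2 and Slc7a11, 3 of the 10 genes were called, against 23.8% of all genes, and none passed the study's criteria (1.82% of all genes). The labels' batch number is the replicate number, and with it as a block in the model the count was 1, since Hmox1 (adjusted p = 0.0582) and Sod2 (adjusted p = 0.054) no longer passed. Neither passed with the small structured RNA share as a covariate (0.14 for Hmox1 and 0.04 for Sod2). Each of these 2 calls was also lost without any 1 of 6 libraries, which for both were KO LPS replicate 1, KO UT replicates 1, 2 and 3 and WT UT replicate 2, and then WT UT replicate 3 for Hmox1 and WT UT replicate 1 for Sod2, with log2 values of 0.13 to 0.19 for Hmox1 and 0.13 to 0.16 for Sod2. The split of the calls was 2 higher and 1 lower under TMM, 0 and 3 under RLE scaling (Slc7a11, Gclm and Txnrd1), 0 higher and 4 lower by DESeq2, 0 higher and 2 lower under upper-quartile scaling and 0 higher and 8 lower with library totals alone, where Hmox1 stood at 0.01 and Sod2 at -0.003.

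For the other 7 genes the log2 difference without LPS lay between -0.19 and -0.07, all on the lower side in KO. Gclm had 71.5, 71.1 and 73.6 CPM in KO UT against 78.1, 84.6 and 83.3 CPM in WT UT, which did not overlap, and its difference of -0.19 (95% interval -0.33 to -0.04) did not pass the adjusted threshold (adjusted p = 0.0567). It passed by DESeq2, under RLE, upper-quartile and total-count scaling, with protein-coding genes alone, with either other filter on low counts, with the 6 UT libraries alone and without WT LPS replicate 1 or 3, at adjusted p from 0.000979 to 0.0469. For Nfe2l2 the difference was -0.08 (95% interval -0.20 to 0.05). These intervals do not show that the levels were alike. With the small structured RNA share as a covariate the differences of all 7 were above 0, from 0.002 for Gclc to 0.36 for Gclm, and none passed the test. In all, the groups did not overlap for 6 of the 10 genes without LPS, against 40.8% of all genes.

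After LPS, Hmox1 was the only 1 of the 10 genes that passed the test between genotypes, at 750, 808 and 738 CPM in KO against 665, 703 and 644 CPM in WT, with a log2 difference of 0.19 ± 0.06 (SE, adjusted p = 0.0281). In this comparison 14.3% of all genes were called, and the groups did not overlap for 3 of the 10 genes and 29.1% of all genes. The call was lost without KO LPS replicate 1 (0.21), KO LPS replicate 2 (0.15) or WT LPS replicate 3 (0.16), with the 6 LPS libraries alone (0.18), with protein-coding genes alone (0.15) and with the small structured RNA share as a covariate (0.20). For Slc7a11 the KO libraries (988 to 1010 CPM) lay just under the WT libraries (1048 to 1200 CPM), at a log2 difference of -0.16 (95% interval -0.28 to -0.03, adjusted p = 0.0999). It passed as lower in KO with upper-quartile scaling (-0.18), with protein-coding genes alone (-0.19), where it was the 1 gene called, and without WT LPS replicate 3 (-0.20), where Hmox1 was not called. For Nfe2l2, Txnrd1 and Gsr the groups overlapped, at -0.06, -0.08 and -0.04. With the small structured RNA share as a covariate, 4 genes were lower in KO after LPS and passed the test, namely Slc7a11 (-0.32), Txnrd1 (-0.30), Gsr (-0.27) and Nfe2l2 (-0.27).

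**Figure D3:**
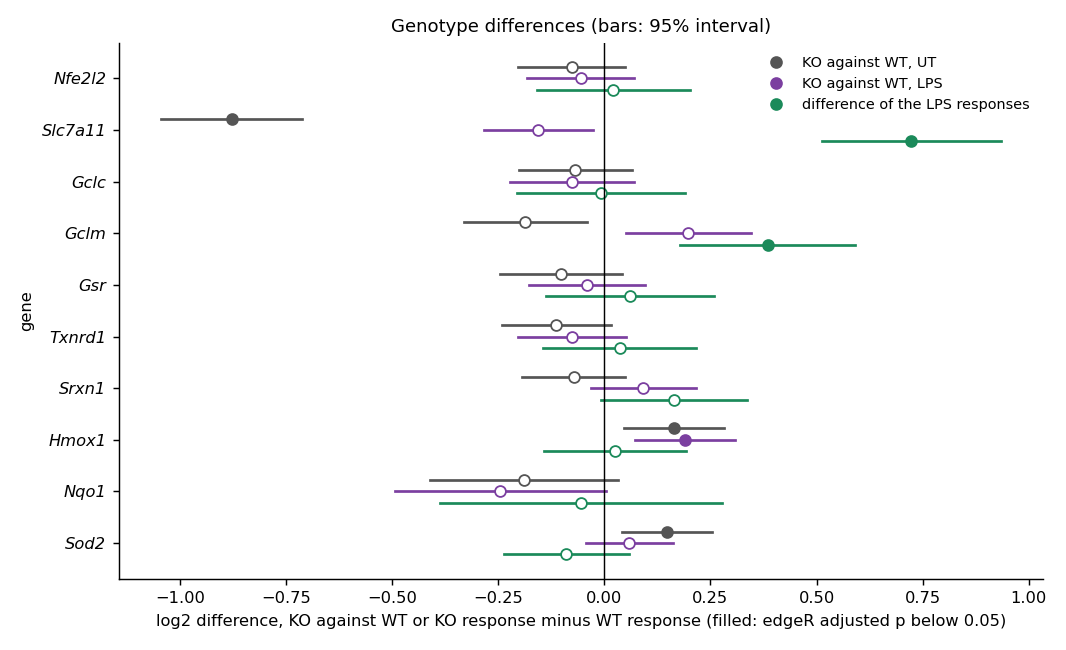
Log2 differences (horizontal axis) for the 10 genes between KO and WT without LPS (grey), between KO and WT after LPS (purple), and between the LPS response of KO and that of WT (green), with bars for the 95% interval and filled points for an edgeR adjusted p below 0.05. Slc7a11 stood apart at -0.88 without LPS and 0.72 for the difference of responses, and Gclm lay at -0.19 without LPS and 0.20 after it.

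The LPS response itself differed between the genotypes for Slc7a11 and Gclm, 2 of the 10 genes, both with a higher value in KO, against 16.8% of all genes, 7.32% with a higher and 9.5% with a lower value. This difference uses all 4 groups and so shares its libraries with the comparisons above. For Slc7a11 the response was larger in KO by log2 0.72 ± 0.10 (SE, adjusted p = 7.12e-05), from log2 differences between the genotypes of -0.88 before LPS and -0.16 after it. For Gclm the values were 87.0, 74.8 and 68.3 CPM in WT LPS and 92.4, 83.8 and 88.2 CPM in KO LPS. Its log2 fold change with LPS was -0.09 (95% interval -0.24 to 0.05) in WT and 0.29 ± 0.07 (SE, adjusted p = 0.000891) in KO, and the difference of responses was 0.38 ± 0.10 (SE, adjusted p = 0.0101). Its direction in KO flips with library totals alone (-0.22), and with upper-quartile scaling its rise there was 0.11 and did not pass, while its value in WT was then -0.28 and passed. Its direction turned in both genotypes with the small structured RNA share as a covariate, to 0.23 in WT, which passed (adjusted p = 0.0208), and -0.20 in KO, which did not (adjusted p = 0.168). Without WT LPS replicate 1, the highest of its group, the value in WT was -0.20 and passed (adjusted p = 0.00458), and without WT LPS replicate 3, the lowest, it was -0.02 and did not pass.

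With the small structured RNA share as a covariate, the difference of responses was 0.25 for Slc7a11 (adjusted p = 0.59) and -0.44 for Gclm (adjusted p = 0.266), so that neither passed. Both passed under every other alternative run, the replicate block and each left-out library included. Per length, Gclm stood at 1.46 ± 0.06 (SD, n = 3) of Gclc in WT UT, 1.35 ± 0.02 (SD, n = 3) in KO UT, 1.86 ± 0.23 (SD, n = 3) in WT LPS and 2.26 ± 0.23 (SD, n = 3) in KO LPS. Gclm shares 296 bp of exon with the antisense gene Gm17494 and 244 bp with the pseudogene Gm6061, which held 189 and 440 counts over all libraries. Whether the counting used strand is not known, and the effect on the counts of Gclm cannot be read from these numbers.

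Per length, the order of the 10 genes differed between UT and LPS. The order depends on the exon lengths, from 1553 bp for Nqo1 to 13922 bp for Slc7a11. In WT UT it ran Hmox1, Nfe2l2, Srxn1, Txnrd1, Gsr, Gclm, Gclc, Nqo1, Sod2 and Slc7a11, where Nfe2l2 and Srxn1 overlapped, as did Gclc and Nqo1. In WT LPS it ran Hmox1, Sod2, Gsr, Nfe2l2, Slc7a11, Txnrd1, Srxn1, Gclm, Nqo1 and Gclc, where Gsr, Nfe2l2 and Slc7a11 overlapped with their neighbors, as did Nqo1 and Gclc. The KO groups had the same order as WT save for Sod2, Gclc and Nqo1, whose places differed. The genes most like Nfe2l2 over the 4 group means, among 9084 genes of at least 5 CPM, were Lipe, Siah2 and Taf15, at root mean square differences of 0.0093, 0.0123 and 0.0134 on the log2 scale.

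A list of 56 further genes around NRF2 and oxidant handling gives the setting of the 10. With LPS 26 rose and 26 fell in WT and 23 rose and 27 fell in KO, with a median log2 fold change of -0.05 and -0.07. Of all tested genes, 38% rose and 35.3% fell in WT and 35.1% rose and 37.7% fell in KO. Library totals alone gave 14 up and 33 down in WT and 16 up and 36 down in KO. The genes named from it are all 9 regulators of NRF2 and otherwise those with the largest called changes among those of at least 5 CPM, save for Slc3a2, Sod3 and the LPS values of Sod1, which were chosen after their values were seen.

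Among the 9 regulators of NRF2, 8 rose and 1 fell in WT, where 38% of all genes rose and 35.3% fell, and 7 rose and 1 fell in KO, where 35.1% rose and 37.7% fell. Keap1, the adaptor that marks NRF2 for degradation, rose by log2 1.23 in WT and 1.47 in KO. Nfe2l1, a relative of NRF2, rose by 1.15 and 1.36, the small MAF genes Maff and Mafk by 1.63 and 0.62 in WT and by 1.25 and 0.65 in KO, and Cul3, the scaffold of the ligase, by 0.55 and 0.87. Sqstm1, the adaptor p62 that draws KEAP1 away from NRF2, rose by 0.97 and 0.48, and Rbx1, the RING subunit of that ligase, by 0.78 in WT, with a value of 0.10 in KO that did not pass. The small MAF gene Mafg, whose promoter match is printed above, went from 62.8, 63.5 and 56.9 CPM to 130, 119 and 117 CPM in WT, a log2 fold change of 1.00. Bach1, the repressor of the same sites, was the gene that fell, from 222, 228 and 228 CPM to 77.4, 70.9 and 70.0 CPM in WT and from 175, 176 and 182 CPM to 69.2, 67.2 and 71.0 CPM in KO. Its log2 fold change was -1.63 in WT and -1.36 in KO, and per length it went from 0.779 ± 0.027 (SD, n = 3) of Nfe2l2 to 0.128 ± 0.007 (SD, n = 3) in WT. With library totals alone 5 of the 9 rose in each genotype, and 1 fell in WT and 2 in KO.

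All 6 genes of quinone metabolism and stress in the list fell in both genotypes, against 35.3% of all genes in WT and 37.7% in KO. This held under each scaling run, and with the small structured RNA share as a covariate 5 of the 6 fell in KO. Among them were the carbonyl reductases Cbr1 (log2 -1.70 in WT and -2.20 in KO) and Cbr3 (-1.78 and -2.03). The thioredoxin and glutathione groups were divided. Peroxiredoxin 5 (Prdx5) rose by log2 3.57 in WT and 3.12 in KO, glutaredoxin (Glrx) by 3.17 and 3.35, and thioredoxin (Txn1) by 2.33 and 1.79, whereas 7 of 11 glutathione genes fell in WT and 8 in KO, against those same shares of all genes, and 5 in each with the covariate. Idh1, a source of cytosolic NADPH, fell by log2 2.51 in WT and 2.26 in KO. Slc40a1, the iron exporter ferroportin, fell by log2 3.22 in WT and 3.57 in KO, while Hmox1, which frees iron from heme, rose.

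**Figure D4:**
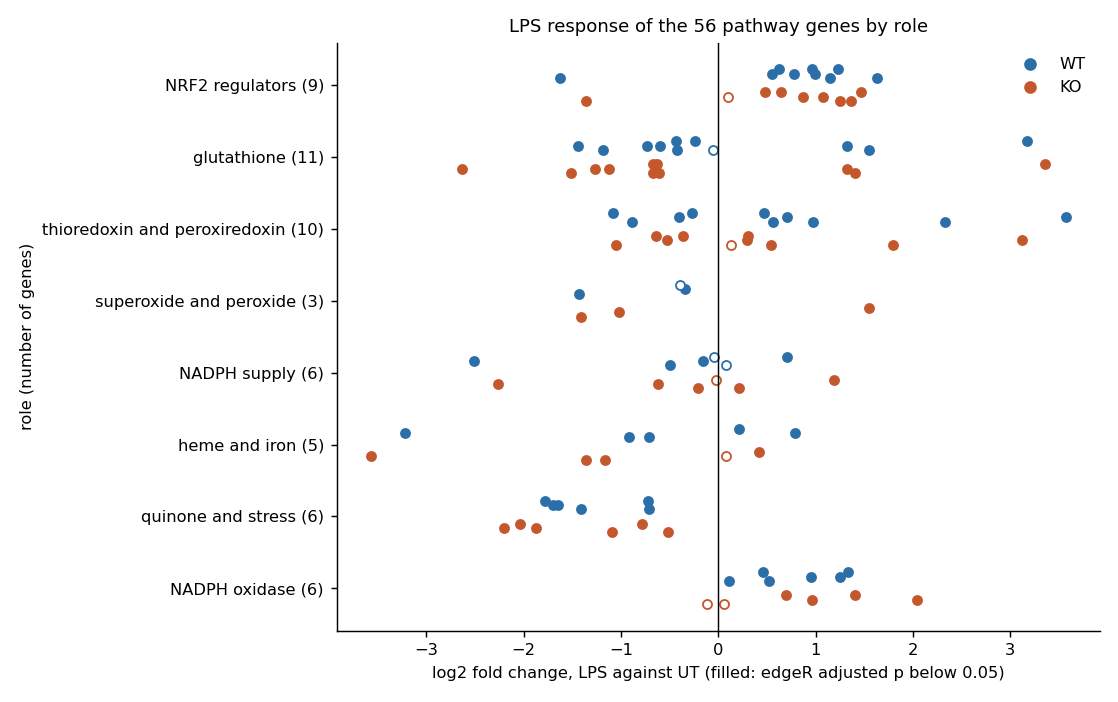
Log2 fold change for LPS against UT (horizontal axis) of the 56 pathway genes, set out by role (vertical axis, with the number of genes), in WT (blue, upper row) and KO (orange, lower row), with filled points for an edgeR adjusted p below 0.05. The 6 quinone and stress genes all lay below 0, and 8 of the 9 NRF2 regulators lay above 0, with Bach1 at -1.63 and -1.36 below it.

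Between genotypes without LPS, 19 of the 56 were higher and 6 lower in KO, against 14.1% and 9.69% of all genes, with none past the study's criteria. Gpx4, which reduces lipid peroxides, was higher in KO at 360, 367 and 338 CPM against 233, 212 and 218 CPM (log2 0.68, adjusted p = 2.2e-06), as were Rbx1 (0.64) and Cyba (0.63), a membrane subunit of the NADPH oxidase. Cybb, the catalytic subunit beside it, was lower (log2 -0.41, adjusted p = 0.000116), as were Bach1 (-0.34) and Me1 (-0.49), which makes NADPH. RLE scaling gave 17 higher and 9 lower, library totals alone 15 higher and 16 lower, and the small structured RNA share as a covariate 5 higher and 0 lower, with none of these 6 named genes past the test. At an unadjusted p below 0.05, edgeR then gave 12 higher and 3 lower. The 19 higher genes had a median exon length of 2139 bp and the 6 lower ones 5153 bp. Among all protein-coding genes these medians were 2451 bp and 6254.5 bp, and the part of transcript length in these differences was not tested.

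After LPS 9 of the 56 were higher in KO and 1 lower, against 7.78% and 6.54% of all genes, and 5 and 1 with the replicate block. The 6 LPS libraries alone, where 55 of these genes were tested, also gave 5 and 1. With the small structured RNA share as a covariate 11 were higher and 3 lower, and with protein-coding genes alone 5 and 4. Over the left-out libraries the higher ones ranged from 4 to 12 and the lower ones from 1 to 6, with 5 and 1 without KO LPS replicate 1, 4 and 1 without KO LPS replicate 3, 5 and 2 without WT LPS replicate 3, and 12 and 6 without WT LPS replicate 1. Txnip, an inhibitor of thioredoxin, stood at 293, 290 and 306 CPM in KO and 226, 207 and 194 CPM in WT (log2 0.50, adjusted p = 3.92e-06), and Glrx was higher by 0.35. Cybb, lower in KO without LPS, was higher after it, at 3805, 3712 and 4079 CPM in KO against 3407, 2801 and 2679 CPM in WT (log2 0.38, adjusted p = 0.000639), and with the covariate its difference was 0.08 and did not pass (adjusted p = 0.41). Sqstm1 was the lower one, at 881, 946 and 887 CPM in KO against 1118, 1230 and 1125 CPM in WT (log2 -0.36, adjusted p = 0.000183). Sod3, the secreted dismutase, was the 1 gene of the list past the study's criteria, against 1.25% of all genes (log2 2.78, adjusted p = 0.00225). It rests on low levels of 0.882, 1.84 and 1.43 CPM in KO LPS and 0.224, 0.269 and 0.0943 CPM in WT LPS. Stromal markers summed to 9.72 to 12 CPM in KO LPS and 2.88 to 6.04 CPM in WT LPS, and their part in the Sod3 difference was not tested.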

How the data were processed

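Total RNA of 12 BMDM libraries, 3 in each of 4 groups set by the labels' genotype and treatment, was prepared by the authors with a stranded kit with globin depletion, sequenced in pairs, checked with FastQC 0.11.9, aligned to GRCm38 with HISAT2 2.1.0 and SAMtools 1.17, and counted per gene with featureCounts 2.0.0. The deposited values are these raw counts per gene, with no filter. The annotation release, strand setting and handling of multi-mapping reads are not given in the sources used here. Symbols, coordinates and exon lengths came from GENCODE mouse M21 (GRCm38), which matched 48144 of 48526 identifiers, and the unmatched ones held 0.122% of counts.

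Genes were filtered with filterByExpr (minimum count 10, minimum total 15), scaled by TMM and fitted over all 12 libraries as 4 group means with edgeR 4.0.16 (R 4.3.3) by the quasi-likelihood test, with Benjamini-Hochberg adjustment over 15523 genes. "Rose" and "fell" mean an adjusted p below 0.05, and the study's criteria add an absolute log2 fold change above 1. SEs are the log2 fold change over the root of its F statistic, and intervals are 95% intervals of the same fit. CPM are TMM-scaled. Depth gives precision through the counts printed, and members had at least 210 counts in every library. The design of 3 against 3 cannot reach an exact permutation p below 0.1, so tests rest on the fit across genes.

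The labels give replicate and batch the same number. Over 18 same-numbered pairs, deviations from group means correlated between -0.0631 and 0.0373, and 0 pairs were above 0.1. The block was run as an alternative because the labels make the number a batch. No 2 replicates agreed within sampling noise. Alternatives were DESeq2 1.42.0, RLE, upper-quartile and total-count scaling (the last added after seeing the data), other filters, the replicate block, the small structured RNA share as a covariate and leaving out each library. The scripts were tested on simulated data. The members and lists were chosen with earlier results of these data known. Named pathway genes are the 9 regulators and, in each comparison and direction, up to 3 called genes of largest change with a mean of at least 5 CPM and, save for the difference of responses, no overlap between libraries. Slc3a2, Sod3 and, for its LPS values, Sod1 are also named, outside this rule and after their values were seen.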

Additional observations from a re-analysis of the deposited data

Results flagged for a closer look

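The LPS response differed between KO and WT by the test of the difference itself (interaction term, edgeR) for the genes named here, where a positive log2 value means a higher response in KO. For Slc7a11 the difference was 0.72, and for Gclm it was 0.38. For Cybb, the catalytic subunit of the NADPH oxidase, it was 0.79, from a log2 rise of 1.25 in WT and 2.04 in KO. For Txnip it was 0.44, with a fall by 1.08 in WT and by 0.64 in KO. For Cul3, the scaffold of the KEAP1 ligase, it was 0.32, and with the replicate block its adjusted p was 0.0637. For Bach1 it was 0.27. For Blvrb, a biliverdin reductase, it was -0.71, for Rbx1 -0.68, for Sod1 -0.67 and for Sqstm1 -0.48. Of the 56 pathway genes, 8 had a higher and 18 a lower response in KO, against 7.32% and 9.5% of all genes, and the 8 were 4 with the replicate block. Over the left-out libraries the higher ones ranged from 3 to 13 and the lower ones from 14 to 18. The higher ones were 3 without KO LPS replicate 3, KO UT replicate 2 or WT LPS replicate 2, 5 without KO LPS replicate 1 or any 1 WT UT replicate, and 13 without WT LPS replicate 1. RLE scaling gave 13 and 14, and library totals alone 15 and 14. With the small structured RNA share as a covariate the counts were 2 and 1, and of the genes named here Rbx1 alone passed, with its sign turned (0.70).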

How the results depend on the processing

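Of the 50 log2 fold changes (10 genes in 5 comparisons), 18 kept their direction and their side of the threshold under all 23 alternatives. The number called with LPS, in either direction, stayed within 1.5 times, but its falling part went from 3 to 1 in WT with the small structured RNA share as a covariate and from 2 to 4 in KO with total-count scaling, and was 3 in KO with upper-quartile scaling, with the compared groups only and without WT LPS replicate 1. In WT this part was 4 with upper-quartile scaling, with total-count scaling and without WT LPS replicate 1, and 2 without WT UT replicate 3. Without LPS, the number of the 10 genes called between genotypes was 3, and became 1 with the replicate block, 1 with the small structured RNA share as a covariate, 5 with the compared groups only and 8 with total-count scaling, which also put 1 gene (Slc7a11) past the study's criteria, and it ranged from 1 to 4 over the 12 left-out libraries. After LPS it was 1, and became 2 by DESeq2, with upper-quartile scaling and with no filter, 4 with the covariate and 0 with the compared groups only, where 3 genes had an unadjusted edgeR p below 0.05, and it ranged from 0 to 3 over the left-out libraries. It was 0 without KO LPS replicate 1 or 2 and 3 without WT LPS replicate 1, where Gclm (0.30) and Srxn1 (0.17) joined Hmox1. For the difference of responses it was 2, and became 1 with the covariate (Txnrd1), and ranged from 2 to 3. The replicate block changed no call of the 10 genes other than those of Hmox1 and Sod2 without LPS.

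Signs turned in small values and under the covariate. By DESeq2 the difference of responses was 0.026 for Nqo1 and 0.073 for Gclc, with RLE scaling 0.025 and 0.073, with no filter 0.024 for Gclc, and with protein-coding genes only -0.020 for Nfe2l2, -0.017 for Hmox1 and -0.0054 for Txnrd1. Total-count scaling gave 0.10 for Nqo1, 0.15 for Gclc and 0.067 for Sod2 there, -0.22 for Gclm with LPS in KO and -0.0031 for Sod2 without LPS. With the covariate, the difference of responses was -0.60 for Nfe2l2, -0.44 for Gclm, -0.61 for Txnrd1 (adjusted p = 0.0363), -0.38 for Srxn1, -0.62 for Gsr and 0.078 for Sod2. The difference without LPS was then 0.33 for Nfe2l2, 0.10 for Nqo1, 0.36 for Gclm, 0.0020 for Gclc, 0.31 for Txnrd1, 0.29 for Srxn1 and 0.35 for Gsr. After LPS it was -0.080 for Gclm and -0.094 for Srxn1, and Gclm with LPS was 0.23 in WT and -0.20 in KO. Over left-out libraries, the difference after LPS ranged from -0.12 to 0.0019 for Nfe2l2, -0.13 to 0.0092 for Txnrd1 and -0.11 to 0.032 for Gsr. The difference of responses ranged from -0.043 to 0.079 for Nfe2l2, -0.013 to 0.069 for Hmox1, -0.17 to 0.055 for Nqo1, -0.054 to 0.038 for Gclc, -0.019 to 0.12 for Txnrd1 and -0.0031 to 0.13 for Gsr. The covariate follows the groups, so group and share are partly confounded, and the cause was not tested.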
